A study of Homo sapiens with 6 samples.

Results

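Histone genes were selected by symbol among the protein-coding genes of the deposited gene table, and 81 of the 68201 genes in the count table met the rule. Of these, 65 were replication-dependent genes (symbols H1-1 to H1-5, H2AC, H2BC, H3C and H4C with a number), of which 54 lie on chromosome 6 and 11 on chromosome 1. The other 16 were variant genes, among them H1-10, H2AX, H2AZ1, H2AZ2, MACROH2A1, MACROH2A2, CENPA, H3-3A, H3-3B and H3-5. H1-6 and H4-16 fell outside the symbol rule for the replication-dependent class and held 1 and 0 reads. The samples were 3 libraries of extracellular vesicles (EVs) and 3 of whole cells (WC) of wild-type (WT) K562, a human line from a chronic myelogenous leukaemia. All cultures were untreated and grown in RPMI with EV-depleted serum for 36 h, the EVs were purified from the medium by size exclusion chromatography, and the cells of the same cultures were collected for the WC libraries. Reverse transcription used a primer for poly(A) tails, and the cDNA was amplified and sequenced on nanopore flow cells. One cell line stands for all cells here, and nothing in the labels says from which kind of vesicle the RNA came.

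Replication-dependent histone mRNAs encode the bulk of the core and linker histones that are made while DNA is copied. Their transcripts are the one class of animal mRNA that normally lacks a poly(A) tail, because they are cleaved after a conserved stem-loop that is bound by SLBP, and they are destroyed when DNA synthesis ends. Variant histone mRNAs, such as those for H3.3 and H2A.Z, are spliced, carry a poly(A) tail and are made throughout the cell cycle. Some replication-dependent genes also yield transcripts with a poly(A) tail, and these are the forms on which oligo(dT) can prime.

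The stem-loop was therefore searched on the transcribed strand of GRCh38 (hg38), in the 100 nt that follow each annotated stop codon, as the 16 letters GG, 2 of any kind, CT, any, T, 2 of any kind, AG, 2 of any kind and CC. It was found in 62 of the 65 replication-dependent genes, in 3 of the 16 variant genes (H2AX, H1-6 and H4-16) and in 26 of 19869 other protein-coding genes (0.131%). H2BC10, H3C6 and H4C13 had no match in this window, which says only that these letters are not there. The reverse complement of the motif matched in 0 members and in 28 other coding genes. The match began 22 to 67 nt after the stop codon. The forms below are the one shared by 38 replication-dependent genes (H1-2, H2AC18), the 2 forms of H4 genes (H4C3, H4C12), a form shared by 8 genes (H2BC11), that of the variant H2AX, and that of H2AC15, which fell in EVs. The 16 nt of the stem-loop are in capitals, with 5 nt on each side, 5′ to 3′ on the transcribed strand, and the GRCh38 positions in brackets.
H1-2 (chr6:26055739-26055764, minus strand): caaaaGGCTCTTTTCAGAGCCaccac
H2AC18 (chr1:149842218-149842243, minus strand): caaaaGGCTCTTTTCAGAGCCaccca
H2BC11 (chr6:27132316-27132341, minus strand): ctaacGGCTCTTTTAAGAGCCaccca
H4C3 (chr6:26104312-26104337, plus strand): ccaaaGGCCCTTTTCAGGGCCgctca
H4C12 (chr6:27831173-27831198, minus strand): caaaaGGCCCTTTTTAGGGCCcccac
H2AC15 (chr6:27837880-27837905, minus strand): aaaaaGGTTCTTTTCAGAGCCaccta
H2AX (chr11:119094893-119094918, minus strand): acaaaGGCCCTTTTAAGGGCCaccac

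Total gene counts were 881338, 560157 and 580852 in the EV libraries and between 2480560 and 3178211 in the WC libraries, so values in EVs rest on fewer reads. The 10 K562 marker genes (GATA1, HBG1 and others) all had reads and summed to 587 to 685 counts per 1000000 counts (CPM) in EV and 377 to 434 CPM in WC libraries. Of 15 markers of other cell types 9 had reads, with sums of 53.5 to 102 CPM in EV and 99.6 to 130 CPM in WC libraries, and MS4A1, CD79A, COL3A1, KRT5, ALB and CDH5 were at 0. CPM here were scaled for library size and for a TMM factor, which removes differences in RNA composition on the assumption that most genes do not change. That scaling matters for every direction below: the median log2 fold change (EV over WC) of all 8716 tested genes was -0.13 with TMM and -0.78 with plain total counts. EV and WC RNA were loaded in fixed amounts, so a change in the number of transcripts per vesicle or per cell cannot be read from any of these values.

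Histone genes took a small share of both kinds of library, at 0.499%, 0.518% and 0.497% of the counts in EV libraries, against 0.623%, 0.616% and 0.571% in WC libraries, every EV library below every WC library. Replication-dependent genes held 0.264%, 0.282% and 0.281% of the counts in EV libraries, against 0.307%, 0.295% and 0.273% in WC libraries, ranges that overlap. Variant genes held 0.235%, 0.237% and 0.216% in EV libraries, against 0.316%, 0.320% and 0.298% in WC libraries, so that the share of every EV library lay below that of every WC library. On the TMM scale the sums of every EV library lay above those of every WC library in both classes. Replication-dependent sums were 3523 ± 286 CPM in EVs and 2385 ± 238 CPM in WC, and variant sums 2924 ± 125 CPM in EVs and 2541 ± 184 CPM in WC (SD, n = 3 each).

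The ratio of the classes within a library needs no scaling between libraries, and it was higher in EVs. It is not corrected for transcript length. The paper reports shorter mapped reads and a lower share of full-length reads in EVs than in cells. Whether this bears on the ratio was not tested. Reads of replication-dependent genes over reads of variant genes stood at 1.13, 1.19 and 1.30 in EV libraries, against 0.973, 0.923 and 0.917 in WC libraries. All EV ratios lay above all WC ratios, with a mean of 1.21 ± 0.0869 in EVs and 0.937 ± 0.0307 in WC (SD, n = 3 each), and no test was run on this sum over chosen genes. The separation rested on a few genes: without the gene with most reads in each class, H1-2 and H3-3A, the ratios were 1.50, 1.60 and 1.79 in EV libraries and 1.52, 1.39 and 1.40 in WC libraries, which overlap. Counting the identical gene pairs described below once left the groups apart, at 0.907, 1.00 and 1.08 in EV libraries and 0.821, 0.788 and 0.799 in WC libraries.

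**Figure D1:**
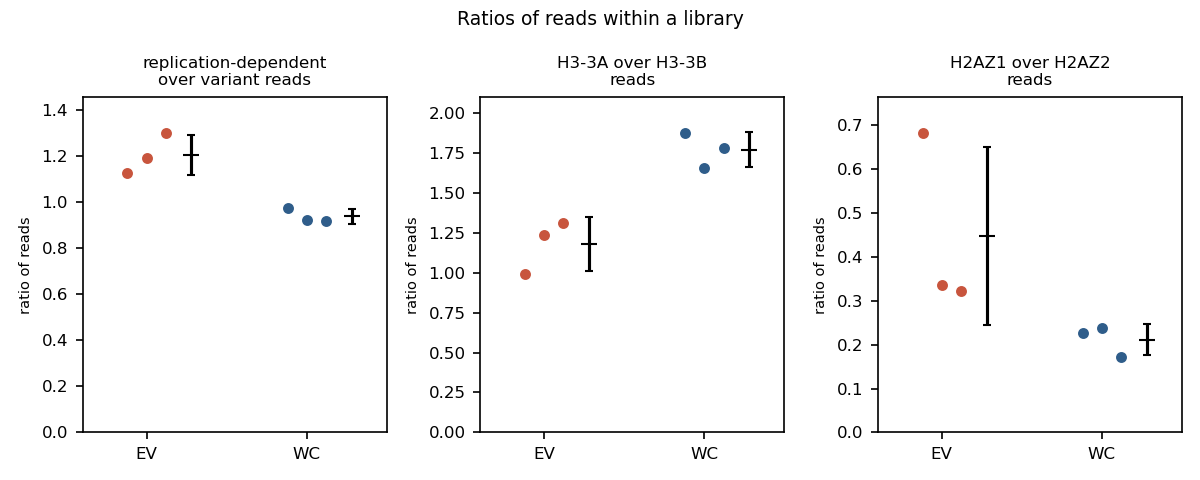
Ratios of reads within each library (vertical axes, no unit) for the 2 classes and for 2 pairs of paralogues, with a point per library and the mean and SD beside each group. The EV points (left) lie above the WC points (right) for replication-dependent over variant reads and for H2AZ1 over H2AZ2, and below them for H3-3A over H3-3B.

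Few replication-dependent genes carried most of the reads. Of the 65 genes, 58 had a read and 38 had at least 15 over the 6 libraries, and the 5 with most reads (H1-2, H2AC19, H2AC18, H4C3 and H2BC11) held 68.3% of the reads of the class. That share was 69.1%, 72.0% and 73.3% in EV libraries, against 70.5%, 66.8% and 65.5% in WC libraries. H2AC18 and H2AC19 are identical copies with near-equal counts. These shares and the H2A reads given next may therefore count the same reads at each copy. By family, H2A genes held 2327 reads in EV and 8630 in WC libraries, H1 genes 1179 and 5305, H2B genes 1078 and 5309, H4 genes 845 and 4681, and the 13 H3 genes only 110 and 440. For comparison, the variant H3 genes held 3855 reads in EV and 20750 in WC libraries. Read numbers are not corrected for length. Per kb of annotated exon, H1-2 stood at 1006 CPM in EVs and 706 in WC, H2AC18 at 1003 and 556, H4C3 at 828 and 656, and H2BC11, whose annotated exons are longer, at 367 and 229.

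The 3 genes with most reads, H1-2 and the identical H2AC18 and H2AC19, have a poly(A) signal just after the stem-loop, while H4C3, H2BC11 and H2AC6 do not. The hexamers AATAAA and ATTAAA were searched on the transcribed strand in the 60 nt after the stem-loop, a window set after the reads were seen. They occurred in 5 of the 62 genes (8.06%): H1-2, H2AC18, H2AC19, H2BC5 and H2AC4. In other protein-coding genes, 7.76% of 19869 windows of the same length, begun 51 nt after the stop codon, held one. These 5 genes carried 14516 of the 29901 reads of the 62 genes, or 48.5%, at a median of 3871 reads per gene against 21 reads for the genes without the hexamer. H2AC4 is the exception, with 2 reads in EV and 7 in WC libraries. The identical H2AC18 and H2AC19 held 3871 and 3891 reads, with at most 8 between them in any library. The 48.5% and the median of 3871 may therefore count the same reads at both. The stretches are given with the hexamer in capitals, 5′ to 3′ on the transcribed strand of GRCh38.
H1-2 (chr6:26055714-26055743, minus strand): accactgatctcAATAAAagagctggataa
H2AC19 (chr1:149851591-149851620, plus strand): cccacgttttcaAATAAAagagttgttaat
H2BC5 (chr6:26158603-26158632, plus strand): acgcatgttttcAATAAAtgagttgtaatc
H2AC4 (chr6:26033067-26033096, minus strand): cctacgacttccATTAAAtgagctgttgtg
The stretch of H2AC18 equals that of H2AC19. The hexamer begins 13 or 14 nt past the stem-loop in all 5 genes.

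A second set of genes has annotated transcripts that run at least 200 nt past the stem-loop. It counts 13 genes, of which H2BC5 also holds the hexamer, and the other 12 held 10031 reads, or 33.5% of the class, at a median of 574.5 reads per gene. The remaining 48 genes held 5357 reads or 17.9%, at a median of 8.5, and 3170 of these reads were from a single gene, H4C3, which has neither feature. This set is defined by the annotation and the hexamer alone and can hold genes with longer transcripts. The authors' sense isoform models of H2BC12, H4C1, H4C12 and H2AC12, all in this set, ended 374, 350, 164 and 145 nt past the stem-loop. The split differed little between the groups. Genes with the hexamer took 57.2%, 49.6% and 51.1% of the class in EV libraries, against 51.2%, 47.6% and 43.5% in WC libraries, ranges that overlap. Genes with neither feature took 11.2%, 18.5% and 17.6% in EV libraries, against 19.2%, 18.1% and 18.5% in WC libraries.

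**Figure D2:**
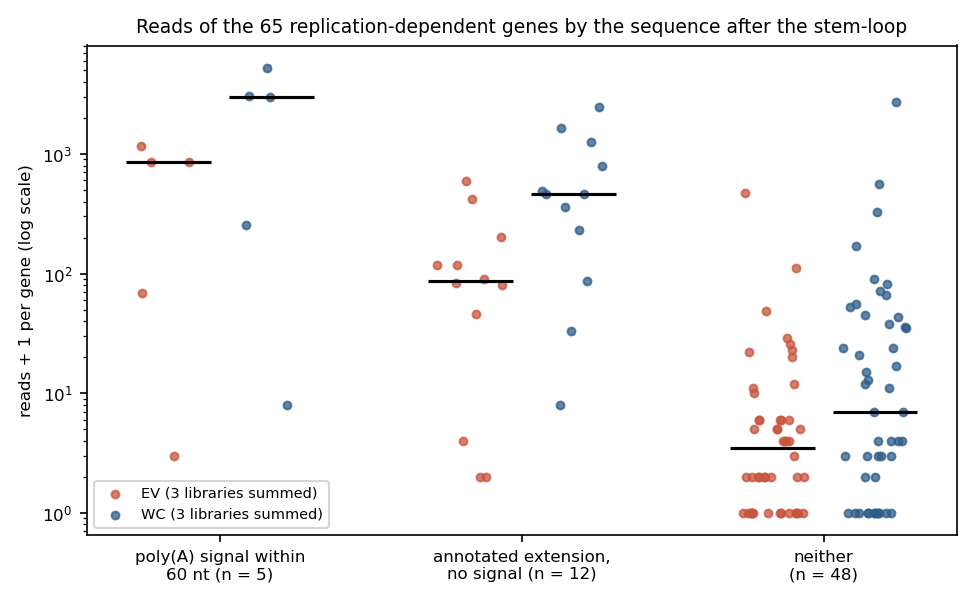
Reads per replication-dependent gene (vertical axis, reads + 1 on a log scale, summed over the 3 EV or the 3 WC libraries), by what follows the stem-loop, with a point per gene and a line at each median. Genes with a poly(A) signal within 60 nt or with an annotated extension lie mostly above the 48 genes with neither, in EV as in WC libraries. Exceptions are H2AC4, H2AC1, H2BC6 and H2BC18, with few reads in EV libraries, and H4C3, H2AC8, H2BC8 and H2AC11, which are high among the 48.

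The isoform models that the authors collapsed from the long reads gave 3′ ends of models, which were not checked against single reads. The models of H3C2 and H2BC5 ended exactly at the annotated gene end, so a model end need not be a measured cleavage site. H2AC7, which has a model, held 1 read over the 6 libraries. Replication-dependent genes had 30 models in 25 genes, of which 21 ran on the strand of the gene and 9 on the opposite strand, all 9 of a single exon. For H4C3, H2BC21, H2AC18, H2AC8, H2AC11, H2AC20, H2AC1 and H2AC4 the opposite-strand model was the only one. From which strand the counted reads of these genes came was not tested. Of the 21 sense models, 5 ended within 50 nt after the stem-loop and 16 ended more than 100 nt past it. In 8 of those 16 a hexamer was found that began 11 to 33 nt before the end of the model. The model of H1-2 ended 38 nt past the stem-loop, 26 nt after the start of AATAAA, and that of H2AC19 ended 35 nt past it, 22 nt after the start of AATAAA. Long models ran 6242 nt past the stem-loop in H2BC11, 9586 nt in H2BC4, 12747 nt in H2BC5, 13099 nt in H2BC15 and 14273 nt in H2AC6. The models pool the EV and WC reads, so they do not say whether the ends differed between the groups.

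**Figure D3:**
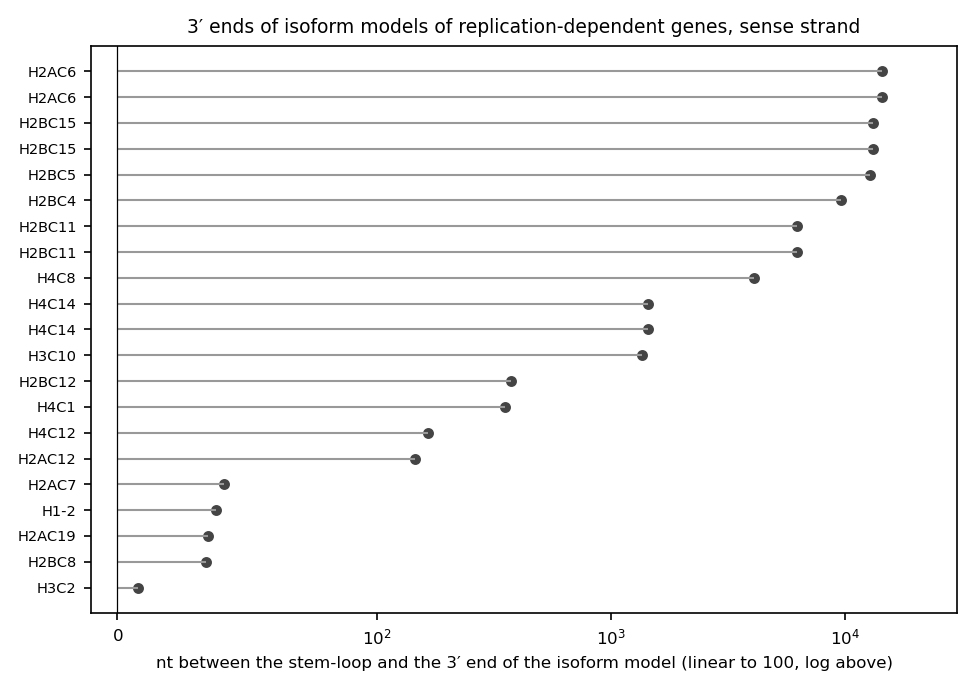
Distance from the stem-loop to the 3′ end of each of the 21 sense isoform models of replication-dependent genes (horizontal axis in nt, linear to 100 and logarithmic above), with 1 row per model. The ends fall into a near set of 5 models, from H3C2 at 8 nt to H2AC7 at 41 nt, and a far set of 16 models from H2AC12 at 145 nt to H2AC6 at 14273 nt.

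Genes were tested with edgeR's quasi-likelihood test over all 8716 genes that passed its filter, with Benjamini-Hochberg adjustment over them, and rose or fell means an adjusted p under 0.05. Of the 24 replication-dependent genes that passed the filter 12 rose and 3 fell, their median lying at 0.44 (log2 fold change). Of the 17 that reached the minimum of the filter in all 6 libraries 9 rose and 1 fell. With identical pairs counted once, 10 of 22 tested replication-dependent genes rose and 3 fell, at a median of 0.36. The other counts of histone genes in this paragraph hold both genes of each pair. Of the 8 variant genes 4 rose and 0 fell, at a median of 0.48. Among all tested genes 22.8% rose and 21.4% fell, at a median of -0.13, and among the 6768 tested protein-coding genes 14.9% rose and 22.2% fell, at a median of -0.24. The EV values lay all above the WC values in 16 of the 32 histone genes, as in 24.9% of all tested genes, and all below them in 5, as in 30.3% of all. The counts depend on the scaling: with total counts in place of TMM, 1 replication-dependent gene rose and 7 fell, and 2 variant genes rose and 3 fell. The median log2 fold changes of the histone genes were then -0.21 and -0.17, beside -0.78 for all genes. H2AC15, H2BC6, H4C5 and H4C9 reached the minimum of the filter in all 3 libraries of WC only, H2AC20 and H2BC12 in all 3 of EV only, and H4C12 in 2 EV libraries and 1 WC library, so such genes entered the test through the group where they were higher.

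**Figure D4:**
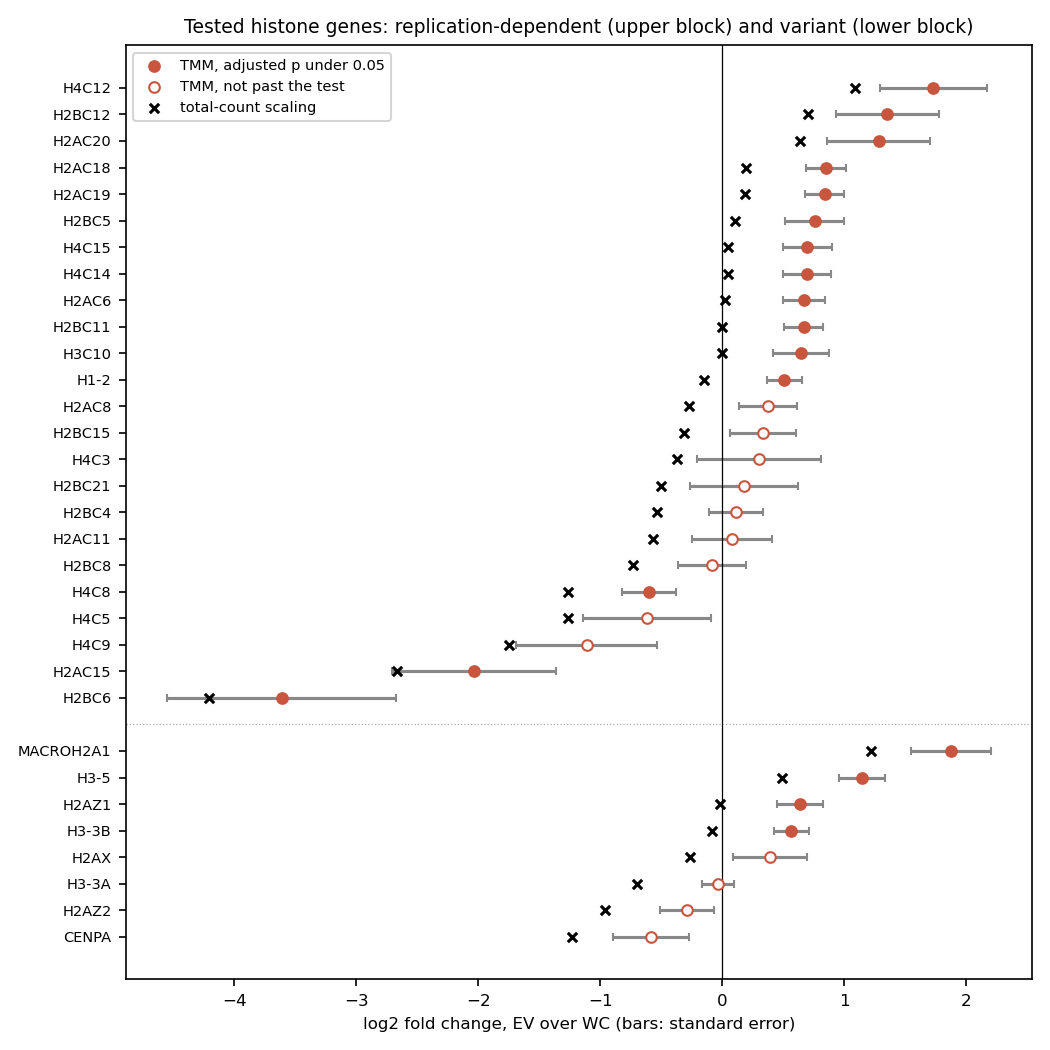
Log2 fold change (EV over WC) of the 32 tested histone genes, with circles for TMM scaling, bars for the standard error and crosses for total-count scaling. Filled circles passed the test. The crosses lie to the left of the circles in every gene, and of the 16 genes with a filled circle right of 0 the crosses of H4C12, MACROH2A1 and H3-5 passed the test on that side.

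Among linker histones, H1-2 was the one replication-dependent H1 gene with enough reads to test. It stood at 694, 742 and 769 CPM in EV libraries, against 591, 517 and 440 CPM in WC libraries. Every EV library was above every WC library, and H1-2 rose by a log2 fold change of 0.51 (± 0.15 SE, with adjusted p = 0.0060, edgeR). With total counts its value was -0.15 (adjusted p = 0.30), and without WC replicate 2 or 3 the adjusted p was 0.053 and 0.077.

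Of the H2A genes, 4 rose. H2AC18 stood at 542, 509 and 552 CPM in EV libraries, against 358, 299 and 232 CPM in WC libraries (log2 fold change 0.85 ± 0.16 SE, adjusted p = 0.00013, edgeR). Its copy H2AC19 gave 0.84. The genes lie on opposite strands of chromosome 1, are identical over 533 nt, and held 3871 and 3891 reads with at most 8 reads between them in any library, so they are not 2 measurements. H2AC6, whose long transcripts share exon sequence with an unnamed gene, stood at 310, 222 and 221 CPM in EV libraries, against 162, 170 and 146 CPM in WC libraries (log2 fold change 0.67 ± 0.17 SE, adjusted p = 0.0026, edgeR). The groups were apart in both genes, but with total counts the log2 fold changes were 0.20 and 0.02 and neither passed. H2AC20 also rose, on 25 reads in EV and 65 in WC libraries (log2 fold change 1.28, adjusted p = 0.016, edgeR, not past the test with DESeq2). Its call was also lost without EV replicate 3, WC replicate 2 or WC replicate 3, and with WC libraries thinned to EV depth.

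H2AC15 fell, on few reads. It stood at 2.74, 0 and 2.28 CPM in EV libraries, against 7.56, 8.93 and 6.98 CPM in WC libraries, with 3 and 81 reads. The EV over WC ratio of those reads was 0.238, with an exact 95% interval of 0.0480 to 0.720 for counting error alone, and the fit gave a log2 fold change of -2.04 (adjusted p = 0.016, edgeR, and not past the test with DESeq2). The call was also lost without EV replicate 2, without any 1 WC replicate, and with WC libraries thinned to EV depth. H2AC11 and H2AC8 had log2 fold changes of 0.08 and 0.38 and did not pass.

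Among H2B genes H2BC11 had most reads. It stood at 306, 419 and 427 CPM in EV libraries, against 231, 237 and 252 CPM in WC libraries (log2 fold change 0.67 ± 0.16 SE, adjusted p = 0.0017, edgeR). The groups did not overlap, and with total counts the log2 fold change was 0.00. H2BC5 rose with a log2 fold change of 0.76 (adjusted p = 0.013, edgeR), at 43.9, 50.9 and 32.0 CPM in EV libraries against 28.2, 23.7 and 23.6 CPM in WC libraries. H2BC12 rose too (1.35, adjusted p = 0.011, edgeR), but on 21 and 52 reads, and DESeq2 passed neither of the 2 genes. Both calls were also lost without EV replicate 1, WC replicate 2 or WC replicate 3, and with WC libraries thinned to EV depth. That of H2BC5 was lost without EV replicate 2 as well, and that of H2BC12 without WC replicate 1.

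H2BC6 was the only histone gene past the stricter threshold of enrichment, a log2 fold change of at least 2 either way with an adjusted p of at most 0.01, which 4.53% of tested genes met as EV-enriched and 5.93% as WC-enriched. It stood at 0, 2.31 and 0 CPM in EV libraries, against 6.53, 7.15 and 11.3 CPM in WC libraries, that is 1 read against 86. The EV over WC ratio of these reads was 0.0746 with an exact 95% interval of 0.00187 to 0.427, and the fit gave -3.61 (SE 0.94, adjusted p = 0.0028, edgeR). Its annotated exons overlap an unnamed gene. It no longer passed the filter with any 1 WC replicate left out, and with DESeq2 it fell (adjusted p = 0.023) but missed the stricter threshold. The call of H2BC6 was also lost with WC libraries thinned to EV depth. H2BC21, H2BC4, H2BC8 and H2BC15 did not pass, with log2 fold changes of -0.08 to 0.34. H2BC21 stood at 54.9, 185 and 189 CPM in EV libraries, against 91.0, 133 and 139 CPM in WC libraries, so EV replicate 1 was the lowest of the 6 and the other 2 EV libraries the highest. Without EV replicate 1 the log2 fold change of H2BC21 was 0.59 and passed the test (adjusted p = 0.0081, edgeR).

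H3C10 was the one replication-dependent H3 gene tested, at 64.5, 43.9 and 52.5 CPM in EV libraries, against 42.3, 34.2 and 29.1 CPM in WC libraries. The log2 fold change was 0.65 (SE 0.23, adjusted p = 0.025, edgeR). The call was lost with DESeq2 and with EV replicate 1 or 3 or WC replicate 2 or 3 left out. It was also lost with WC libraries thinned to EV depth.

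The tested H4 genes went in different directions. H4C14 stood at 76.8, 69.4 and 70.8 CPM in EV libraries, against 47.4, 46.0 and 41.3 CPM in WC libraries (log2 fold change 0.70 ± 0.20 SE, adjusted p = 0.0060, edgeR). H4C15 is its identical copy, with 577 reads each. H4C8 fell: it stood at 46.6, 62.4 and 43.4 CPM in EV libraries, against 63.6, 75.3 and 89.9 CPM in WC libraries (log2 fold change -0.60 ± 0.22 SE, adjusted p = 0.030, edgeR). In these genes the EV and WC values did not overlap. H4C8 has exons that overlap an unnamed gene, its long model ended 4076 nt past the stem-loop, and its adjusted p was 0.064, 0.11 and 0.073 without EV replicate 1, EV replicate 3 or WC replicate 3.

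H4C12 had the largest rise among the tested replication-dependent genes and was the only one of them whose rise was also called with total counts. It stood at 16.5, 16.2 and 6.85 CPM in EV libraries, against 3.78, 5.36 and 2.91 CPM in WC libraries (log2 fold change 1.73 ± 0.44 SE, adjusted p = 0.0022, edgeR). With total counts it was 1.09 (adjusted p = 0.032, edgeR), and without EV replicate 1 the adjusted p was 0.058. The call was also lost with WC libraries thinned to EV depth. H4C11, which was not tested, is 98.97% identical to H4C12 over 387 nt and held 19 reads in EV and 35 in WC libraries, a ratio of 3.48 with an exact 95% interval of 1.88 to 6.26, so the reads of these genes may not be separate. The sense model of H4C12 ended 164 nt past the stem-loop with AATAAA 19 nt before its end.

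H4C3, the H4 gene with most reads, split the EV libraries. It stood at 121, 449 and 436 CPM in EV libraries, against 304, 248 and 245 CPM in WC libraries. EV replicate 1 was below all WC libraries and the other EV replicates above them, and the log2 fold change of 0.30 (± 0.51 SE, with adjusted p = 0.67, edgeR) was not past the test. Without EV replicate 1 it was 0.70 with an adjusted p of 0.00010. What set EV replicate 1 apart for H4C3 and H2BC21 was not tested. Of the other H4 genes, H4C5 (-0.62) and H4C9 (-1.11) did not pass.

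**Figure D5:**
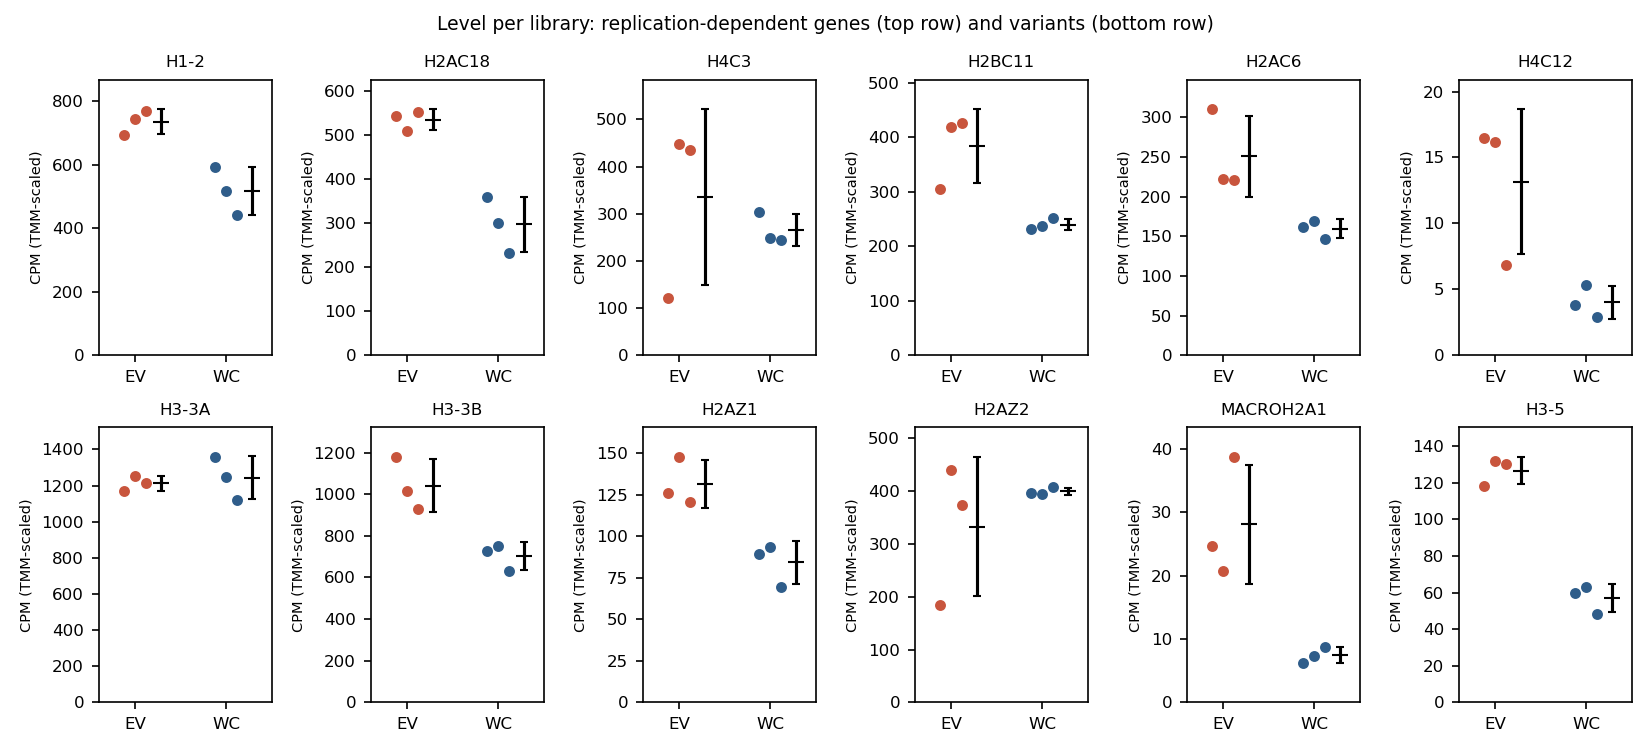
Level of 6 replication-dependent genes (top row) and 6 variant genes (bottom row) in each EV (left) and WC (right) library, in TMM-scaled CPM on axes from 0, with the mean and SD beside the points. EV libraries lie above WC libraries in H1-2, H2AC18, H2BC11, H2AC6, H4C12, H3-3B, H2AZ1, MACROH2A1 and H3-5, while H4C3 and H2AZ2 show a low EV replicate 1.

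Of the 41 replication-dependent genes that were not tested, 7 had no read, 20 had 1 to 14 reads and 14 had at least 15. Together they held 102 reads in EV and 416 in WC libraries, so that 19.7% of their reads were from EVs, where EVs gave 19.5% of the counts of all genes, 18.5% for the tested replication-dependent genes and 15.1% for the tested variant genes. Of the 14, H3C2 held 10 reads in EV and 44 in WC libraries, H2AC13 11 and 37, H2BC9 5 and 55, H1-4 5 and 34, H2BC7 4 and 23, and H1-5 5 and 10, and the exact 95% interval of the EV over WC ratio included 1 in all of them. H2BC18 held 1 read in EV and 32 in WC libraries, with a ratio of 0.201 and an exact 95% interval of 0.00493 to 1.20. The others were H2BC17 (1 and 23), H4C4 (1 and 20), H4C2 (1 and 16), H2AC16 (2 and 14) and the identical H3C14 (4 and 12) and H3C15 (4 and 11). At this depth no difference was detectable in these 13 genes, all but H4C11, which is described above.

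H3.3, the variant laid down outside DNA replication, is encoded by H3-3A and H3-3B, of which H3-3B alone passed the test. H3-3A stood at 1167, 1254 and 1214 CPM in EV libraries, against 1359, 1247 and 1121 CPM in WC libraries. These values overlapped, with a log2 fold change of -0.04 (± 0.13 SE, with adjusted p = 0.84, edgeR). H3-3B stood at 1180, 1015 and 927 CPM in EV libraries, against 726, 753 and 629 CPM in WC libraries, all EV above all WC, and rose with a log2 fold change of 0.57 (± 0.14 SE, with adjusted p = 0.0018, edgeR). With total counts H3-3A fell by 0.69 on the log2 scale (adjusted p = 1.8e-05) and H3-3B stood at -0.08 (adjusted p = 0.57), so which of them changed depends on the scaling, while their ratio does not.

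Within a library, reads of H3-3A over reads of H3-3B stood at 0.990, 1.23 and 1.31 in EV libraries, against 1.87, 1.65 and 1.78 in WC libraries. All EV ratios were below all WC ratios, and the log2 ratio was lower in EVs by a difference of -0.60, at 0.23 ± 0.21 in EVs and 0.82 ± 0.09 in WC (SD, n = 3 each, exact two-sided permutation test, p = 0.10, adjusted over 3 pairs 0.15). With 3 libraries against 3 this test cannot go below 0.10. H2AZ1 and H2AZ2, which encode the nearly identical H2A.Z proteins of active promoters, had ratios of 0.681, 0.337 and 0.323 in EV libraries, against 0.226, 0.237 and 0.171 in WC libraries, a log2 difference of 1.01 (exact permutation p = 0.10, adjusted 0.15). EV replicate 1 was the highest, and without it the difference was 0.66. The ratio holds for gene counts only, since the authors' isoform means, given below, put H2AZ1 above H2AZ2.

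H2AZ1 stood at 126, 148 and 121 CPM in EV libraries, against 89.7, 93.7 and 69.8 CPM in WC libraries. All EV values were higher, and the log2 fold change was 0.64 (SE 0.19, adjusted p = 0.0072, edgeR), lost without WC replicate 3 (adjusted p = 0.080). H2AZ2 stood at 185, 439 and 374 CPM in EV libraries, against 396, 395 and 408 CPM in WC libraries, with EV replicate 1 the lowest of all, and did not pass (log2 fold change -0.29, SE 0.22, adjusted p = 0.31, edgeR). With total counts H2AZ2 fell by 0.96 on the log2 scale (adjusted p = 0.0012), and H2AZ1 stood at -0.02. The exons of H2AZ1 overlap H2AZ1-DT.

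MACROH2A1, which encodes a histone with a large extra domain found in silent chromatin, had the highest log2 fold change of the 32 tested histone genes. It stood at 24.7, 20.8 and 38.8 CPM in EV libraries, against 6.18, 7.40 and 8.73 CPM in WC libraries, on 44 and 77 reads. The groups were far apart, with a log2 fold change of 1.88 (± 0.33 SE, with adjusted p = 4.3e-05, edgeR) and of 1.22 with total counts (adjusted p = 0.0032). Its exons overlap PITX1-AS1 and an unnamed gene. Its relative MACROH2A2 held 0 reads in EV and 5 in WC libraries. With no EV read of MACROH2A2 the ratio of the pair depends on the pseudocount (a log2 difference of 0.77 with 0.5 and of 0.32 with 1), and nothing was read from it.

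H3-5, an intronless gene for an H3.3-like protein, also rose under either scaling. It stood at 118, 132 and 130 CPM in EV libraries, against 59.8, 62.8 and 48.3 CPM in WC libraries (log2 fold change 1.14 ± 0.19 SE, adjusted p = 1.9e-05, edgeR) and of 0.49 with total counts (adjusted p = 0.024). All EV values were above all WC values. H3-5 is 95.6% identical to the H3-3B transcript over 1114 nt, so reads of H3-3B may count there.

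Of the remaining variants, CENPA, the centromeric H3, stood at 12.3, 18.5 and 18.3 CPM in EV libraries, against 26.1, 20.9 and 24.1 CPM in WC libraries. All EV values were lower, but the log2 fold change of -0.58 was not past the test (SE 0.31, adjusted p = 0.13, edgeR), and it was -1.23 with total counts (adjusted p = 0.0015). H2AX, which is phosphorylated at DNA breaks and whose mRNA can end at a stem-loop or in a poly(A) tail, stood at 16.5, 32.4 and 34.2 CPM in EV libraries, against 22.0, 16.1 and 21.8 CPM in WC libraries. These overlapped, with a log2 fold change of 0.39 (± 0.30 SE, with adjusted p = 0.31, edgeR). H1-10, which was not tested, held 12 reads in EV and 24 in WC libraries, a ratio of 3.21 with an exact 95% interval of 1.46 to 6.67, and its exons overlap its antisense gene. H1-6 and H1-7 held 0 reads in EV and 1 in WC libraries each, and H1-8, H2AJ and H4-16 held none.

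The 6 replication-dependent genes that are known from other human cells to have transcripts with a poly(A) tail (H1-2, H2AC6, H2BC4, H2BC5, H2BC12 and H2BC21) were all tested. Of these 4 rose and 0 fell with TMM, beside 22.8% and 21.4% of all tested genes, and 0 rose and 1 fell, H2BC4, with total counts. Their median on the log2 scale was 0.59 with TMM and -0.06 with total counts, and DESeq2 called 2 of the 4 rises, those of H1-2 and H2AC6. The list was drawn up with earlier results of these data known.

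Processed pseudogenes of H3-3A held up to nearly as many reads as the gene, and H3P6 had a higher log2 fold change than any tested member. H3P16, 99.27% identical to H3-3A over 411 nt, held 1687 reads in EV and 12263 in WC libraries, where H3-3A held 1925 and 12695. H3P16, H3P36 and H2AZ2P1 did not pass, with log2 fold changes of -0.17, -0.19 and -0.38, while H3P47 rose by 0.42 (adjusted p = 0.036, edgeR, and 0.068 with the replicate block) and H3P14 by 1.32 (adjusted p = 0.00048, edgeR). H3P6, named here after its values were seen, stood at 89.2, 125 and 128 CPM in EV libraries, against 24.0, 20.9 and 14.8 CPM in WC libraries (log2 fold change 2.49 ± 0.22 SE, adjusted p = 1.9e-09, edgeR). It matches H3-3A at 100% over 411 nt and held 378 reads, where H3-3A held 14620. Of 68 histone pseudogenes 31 had reads, 8 were tested, 3 rose and 0 fell, at a median of 0.12, beside 22.8% and 21.4% of all tested genes. With total counts 2 of the 8 rose and 4 fell, at a median of -0.54. How reads that match a gene and its copies were assigned is not given in the sources used here, so the split of reads between H3-3A and these copies is uncertain. Exact copies had near-equal counts. The X and Y lines of the 24 genes of the pseudoautosomal regions with reads held 7799 and 7798 reads. H4C14 and H4C15 differed by at most 1 read in any library. Sums and shares may therefore hold the same reads at each copy, which was not tested.

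Of 20 genes for the transcription, 3′ processing and decay of histone mRNA, 15 were tested, 2 rose and 5 fell, at a median of -0.41, beside 22.8% and 21.4% of all tested genes. With total counts 0 rose and 11 fell, at a median of -1.06. With the replicate block 1 rose and 3 fell, since UPF1, SYMPK and NCBP1 no longer passed (adjusted p = 0.066, 0.069 and 0.060, edgeR), and with DESeq2 0 rose and 2 fell, NPAT and TUT4. NPAT, the activator of histone gene transcription, fell with a log2 fold change of -2.46 (adjusted p = 0.00066, edgeR), TUT4, a uridylyl transferase, with -1.57 (adjusted p = 0.0020), and CSTF2, a cleavage factor, with -1.14 (adjusted p = 0.016), while NCBP2 of the cap-binding complex rose with 0.94 (adjusted p = 0.016). Of 24 S phase genes whose mRNAs have poly(A) tails 19 were tested, 4 rose and 3 fell, at a median of -0.05. With total counts 2 rose and 14 fell, at a median of -0.70, and with DESeq2 2 rose and 1 fell. The block took GINS2 from the calls (adjusted p = 0.068, edgeR). CDT1, a replication licensing factor, rose with a log2 fold change of 2.03 (adjusted p = 1.0e-06, edgeR), FEN1 with 1.34 (adjusted p = 0.00012) and RRM1 with 0.84 (adjusted p = 0.010), and GINS1 fell with -1.45 (adjusted p = 0.015). With total counts the rises of NCBP2 and RRM1 were not called, and DESeq2 passed neither these rises (adjusted p = 0.089 and 0.065) nor the falls of CSTF2 and GINS1 (adjusted p = 0.053 and 0.058).

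The isoform table and the gene counts did not give the same picture for some members. For H2BC12 the authors' mean of normalized reads over all libraries was 725 in the isoform table and 11.3 in the gene table, and for H2AZ1 it was 749 and 138. For H1-2 it was the other way, 10.6 in the isoform table and 801 in the gene table, and likewise for H4C3, with 24.8 and 384. H2AZ2 had 109 and 473, so H2AZ1 stood above H2AZ2 in the isoform table and below it in the gene table. The tables were scaled separately, and the cause of these gaps was not tested.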

How the data were processed

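The 6 libraries (EV and WC, 3 replicates each) came from nanopore sequencing of PCR-amplified cDNA (50 ng RNA, 14 cycles). The authors called bases with Guppy 6.2.1, dropped reads under 20 nt, mapped to hg38 with minimap2 2.24 and counted reads per GENCODE v41 gene with featureCounts in long-read mode. Strand setting and handling of multiple hits are not given in the sources used here. The deposited counts are the authors' raw counts per gene. The deposited normalized columns hold a signal, the authors' counts divided by DESeq2 size factors, used for means only. The deposited score of the isoform models ranges like a mapping quality and was not used. The authors' own fold changes and p-values were not used.

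Here 46 repeated lines of pseudoautosomal genes were dropped. The test was that of edgeR 4.0.16 (R 4.3.3, TMM, its expression filter, robust quasi-likelihood fit, Benjamini-Hochberg adjustment over 8716 genes). Where nothing else is said, SDs are over 3 libraries. Ratios of paralogues used log2 counts with a pseudocount of 0.5 and an exact permutation test. Intervals are 95% Clopper-Pearson intervals of EV reads among all reads of a gene, scaled by effective library size, and cover counting error only, since PCR copies carried no molecular tags. Positions come from GENCODE v44 on hg38, in which 61757 of the gene IDs were found. Members and lists were chosen with earlier results of these data known. Named genes were the tested variants, the replication-dependent genes past the test or among the 5 with most reads, untested members with at least 15 reads, the 4 lowest adjusted p of a list and the 5 pseudogenes with most reads. The test was run on simulated counts: among 50 genes per log2 change of 1, 2, 3 or 4 it called 59.6%, 89.6%, 100% and 100% of those its filter kept, and 0.137% of 8052 unchanged genes. The simulation gave all genes the common dispersion (0.018), changed few genes, up and down alike, and used the fitted library sizes. It therefore does not cover the TMM assumption or genes noisier than that, such as H4C3. According to the methods of the study, the EV and WC libraries of a replicate shared a culture and a flow cell, so the replicate numbers pair them. Their deviations from the group means correlated at 0.062, 0.024 and 0.004. Other tools were DESeq2 1.42.0, limma 3.58.1, Python 3.11.15, pandas 2.3.3, scipy 1.17.1, pysam and edlib. The tests were repeated with DESeq2, with RLE or total-count scaling, unfiltered, with a filter at a mean of 5 reads, with the replicate block, after thinning WC libraries to EV depth, without each library in turn and with another class for H4-16 and H1-6. Counting identical pairs once and leaving out H2AC18, H2AC19 and H1-2 were added after the data were seen. The values of 1 variant gene are not reported here.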

Additional observations from a re-analysis of the deposited data

How the results depend on the processing

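Under RLE scaling, the replicate block and another class for H4-16 and H1-6, the same 19 histone genes passed the test (15 replication-dependent, 4 variant). The replicate block gave 16 that rose and 3 that fell, as without it, and among the named genes it changed 1 call, that of H3P47. It also ended the calls of the related genes UPF1, SYMPK, NCBP1 and GINS2. Total-count scaling, which moved the median of all genes to -0.78, kept 6 of the 19 calls and added 7. It left 8 replication-dependent calls and 9 among the named genes, gave 33 calls among related genes in place of 17, and turned the log2 ratio of the summed levels to -0.083 for replication-dependent and -0.44 for variant genes. It also turned H1-2 (-0.15), H2BC11 (-0.00046), H3C10 (-0.00075), H4C3 (-0.37), H2AX (-0.26), H2AZ1 (-0.016), H3-3B (-0.084) and H3P47 (-0.25). Without a filter, where the median of the same genes was -0.34, 10 histone genes passed, 7 of them replication-dependent, and 9 named genes. With WC libraries thinned to the EV depth, 12 histone genes passed, 8 of them replication-dependent, 12 named genes and 10 related genes, with 25 histone genes tested. DESeq2 called 10 related genes and 15 histone genes.

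Leaving out 1 library gave 10 to 18 histone genes past the test, 7 to 14 replication-dependent, 3 to 4 variant, 10 to 17 named and 12 to 16 related genes. The lowest counts came without WC replicate 3 (10 histone genes, 0 of them fallen) and WC replicate 2 (12). The log2 ratio of the class sums stayed between 0.31 and 0.41. It was 0.18 without the gene with most reads in each class and 0.22 without H2AC18, H2AC19 and H1-2, against 0.36. The log2 difference of H3-3A over H3-3B stayed between -0.68 and -0.47 and that of H2AZ1 over H2AZ2 between 0.66 and 1.20. That of MACROH2A1 over MACROH2A2 rests on the pseudocount and says nothing about stability. EV depth limits the low genes, where 1 read is over 1 CPM.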
